A study of Homo sapiens with 48 samples.

Results

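The transcripts of 9 chemokine genes were measured in BEAS-2B cells, a line made from human bronchial epithelium by immortalisation with viral genes. The genes were CXCL1, CXCL2, CXCL3, CXCL5, CXCL6 and CXCL8, the membrane-anchored CXCL16, and the CC ligands CCL2 and CCL20. All probe sets annotated with one of these symbols and no other were taken, 14 of the 54613 non-control probe sets on the Affymetrix U133 Plus array (9 of 19775 genes that have such a probe set), and each was kept apart because the probe sets of CXCL2 differ. Confluent cells had received vehicle, Ind/GSK (the long-acting β2-adrenoceptor agonist indacaterol with the phosphodiesterase 4 inhibitor GSK 256066, each at 10 nM), or 10 nM GS-5759, a single bifunctional molecule with both activities. RNA was taken after 1, 2, 6 or 18 h, with 4 arrays for each of the 12 groups of treatment and time, numbered 1 to 4 in the sample titles. Before treatment every culture had spent 3 days in keratinocyte serum-free medium with epidermal growth factor, bovine pituitary extract and antibiotics, and then 24 h in that medium with no supplement named. No group analysed here held 1 of the 2 drugs of the combination alone, and no inflammatory stimulus is named for any group, so the levels are those of resting cells of 1 line and of the same cells with drugs that are known to raise cyclic AMP.

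Chemokines are small secreted proteins that guide leukocytes along a concentration gradient through G protein-coupled receptors. The CXC ligands with an ELR motif before the first cysteine, which include CXCL1, CXCL2, CXCL3, CXCL5, CXCL6 and CXCL8, attract neutrophils through CXCR2, and CXCL6 and CXCL8 also act on CXCR1. CCL2 attracts monocytes through CCR2, CCL20 attracts CCR6-bearing dendritic cells and lymphocytes, and CXCL16 is made as a membrane protein that ADAM10 can shed and that binds CXCR6. In airway epithelium most of them are known as NF-kB targets whose mRNA carries AU-rich decay elements, while β2-adrenoceptor agonists and phosphodiesterase 4 inhibitors raise cyclic AMP and act through protein kinase A and CREB.

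Across the series, array medians of log2(signal + 16) lay between 6.998 and 7.172. Arrays of replicate 3 stood apart in every group: the basal keratin KRT5 read 29500 to 36300 on its 12 arrays and 108 to 277 on the other 36, and KRT19 read 2300 to 4520 against 0.0029 to 118. Of 13 epithelial markers 10 were on the array, and their summed signal ran from 10800 to 70600 over arrays. The epithelial keratins KRT8 (3110 to 6970) and KRT18 (5310 to 9220) were bright on every array. EPCAM (28.4 to 256) and CLDN4 (153 to 281) were dim, and CDH1 (173 to 1530), CLDN1 (557 to 2340), ITGB4 (534 to 2030) and KRT7 (246 to 10500) varied between arrays. Of the markers of other cell types, 9 of 11 leukocyte, 7 of 7 endothelial and 8 of 8 fibroblast markers were on the array, with group means of the summed signal of 1900 to 2170, 820 to 962 and 11700 to 13600. The 9 leukocyte markers had mean signals from 28.4 (PTPRC) to 974 (LAPTM5, 337 to 2570 over arrays), with LYZ at 376 and CSF1R at 259. The 7 endothelial markers ranged from 12.5 (CDH5) to 520 (PECAM1), and the other 5 had means of 50.5 to 81.7. Of the fibroblast markers COL1A1 (9040), PDGFRB (1810) and THY1 (1390) were bright, while COL1A2 (135), COL3A1 (90.6), DCN (141), LUM (80.2) and PDGFRA (77.9) were dim. None of the 9 epithelial, 7 leukocyte, 3 endothelial and 8 fibroblast markers tested was called in a comparison with vehicle. Of all tested probe sets 0% to 2.87% were called in these comparisons. The fit took no account of the replicate number, which for KRT5 widened the spread within groups, so the lack of calls is no measure of cell composition.

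Promoter sequences are given for CXCL2 and CCL20, members whose transcripts rose, and for CXCL1 and CXCL3, the closest copies of CXCL2. The promoter collection used held no entry for CCL2, which was also higher with both treatments at 2 h, or for CXCL16. The promoters of CCL2 and CXCL16 were therefore not searched. The sequences shown are the 250 bases before the RefSeq start, from assembly GRCh38.p14, with capitals for matches to the NF-kB consensus and to TGACG, a part of the cyclic AMP response element, on either strand. The windows are chr4:74099196-74099445 on the minus strand for CXCL2, chr4:74038690-74038939 on the minus strand for CXCL3, chr4:73869143-73869392 on the plus strand for CXCL1 and chr2:227813592-227813841 on the plus strand for CCL20.
CXCL2: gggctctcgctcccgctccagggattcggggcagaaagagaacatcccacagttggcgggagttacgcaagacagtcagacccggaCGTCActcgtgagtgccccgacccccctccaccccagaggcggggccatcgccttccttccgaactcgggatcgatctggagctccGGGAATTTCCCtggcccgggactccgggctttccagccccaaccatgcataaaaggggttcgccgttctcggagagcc
CXCL3: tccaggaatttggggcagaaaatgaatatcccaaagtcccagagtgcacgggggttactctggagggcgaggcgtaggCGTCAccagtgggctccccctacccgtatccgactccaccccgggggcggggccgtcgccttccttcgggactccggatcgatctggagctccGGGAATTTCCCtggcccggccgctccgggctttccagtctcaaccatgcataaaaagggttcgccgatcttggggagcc
CXCL1: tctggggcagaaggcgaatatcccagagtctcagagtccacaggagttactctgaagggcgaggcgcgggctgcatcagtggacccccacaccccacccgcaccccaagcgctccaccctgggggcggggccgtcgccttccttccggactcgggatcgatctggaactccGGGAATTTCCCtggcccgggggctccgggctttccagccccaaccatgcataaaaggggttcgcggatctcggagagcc
CCL20: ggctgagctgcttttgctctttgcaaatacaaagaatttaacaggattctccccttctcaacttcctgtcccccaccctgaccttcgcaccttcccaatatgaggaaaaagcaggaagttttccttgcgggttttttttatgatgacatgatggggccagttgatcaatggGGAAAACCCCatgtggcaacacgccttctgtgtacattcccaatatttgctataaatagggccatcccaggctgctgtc

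The windows of CXCL1, CXCL2, CXCL3, CXCL5 and CXCL6 all held the run GGGAATTTCCC, in which overlapping matches to the NF-kB consensus lie on opposite strands, at bases 78 to 68 before the start of CXCL2. CCL20 had 1 match on the minus strand (bases 79 to 70), and the window of CXCL8 had no full match. The CXCL8 window does hold GGAATTTCC, a run that also lies within GGGAATTTCCC, so the lack of a full match does not show that it has no NF-kB site. The consensus was found in 9.96% of 35116 RefSeq promoter windows. TGACG was found once each in CXCL2 (bases 164 to 160), CXCL3 (172 to 168) and CXCL8 (179 to 175) and in 21.2% of all windows. The full element TGACGTCA, which contains TGACG, was in none of the 7 chemokine windows and in 1.65% of all, and the AP-1 element TGANTCA was in CXCL8 (bases 137 to 131) and in 6.57% of all. CXCL2 and CXCL3 shared 80.8% of aligned bases, CXCL1 and CXCL2 81.4%, CXCL1 and CXCL3 86.4% and CXCL5 and CXCL6 85.9%. On chromosome 4 the annotation orders the cluster as CXCL8, CXCL6, PF4V1, CXCL1, PF4, PPBP, CXCL5, CXCL3 and CXCL2. These near copies also bear on the probe sets, since an Affymetrix name ending in _x_at marks probes that may match other sequences and _s_at marks probes shared by several transcripts; how much signal is shared was not tested.

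Of the 14 probe sets, 7 (of CXCL1, CXCL2 with 2, CXCL5, CXCL8, CXCL16 and CCL2) had a mean above the low-signal filter, a signal of 75.42, and entered the limma test over 32768 probe sets. The other 7, which include the only probe sets of CXCL3, CXCL6 and CCL20, lay below it, and their differences and adjusted p-values come from the fit of all 54613 probe sets without that filter. A probe set was called at a Benjamini-Hochberg adjusted p under 0.05 in limma, and differences are on the log2(signal + 16) scale with their SE, which understates the change of low signals. CXCL2 was the 1 of 7 tested probe sets called with either treatment at 1 h and at 2 h, where 2.01% (Ind/GSK, 1 h), 2.43% (Ind/GSK, 2 h), 0.259% (GS-5759, 1 h) and 2.24% (GS-5759, 2 h) of all tested probe sets were called. At 6 h and 18 h limma called 0 of 7, with 2.87% and 0.0244% called over all probe sets for Ind/GSK and 1.28% and 0% for GS-5759. At unadjusted p under 0.05 the members numbered 1, 2, 1 and 0 of 7 for Ind/GSK at 1, 2, 6 and 18 h, where 20.2%, 12.7%, 13.8% and 6.25% of all tested probe sets passed. For GS-5759 they numbered 2, 2, 1 and 0 of 7, where 4.51%, 12.2%, 12.2% and 3.17% of all passed. Without the filter CCL20 was called as well in the same 4 comparisons, against 0.69%, 1.16%, 0.178% and 1.19% of all probe sets in that order. With the replicate number as a block, limma called 2 of 7 with Ind/GSK at 1 h (CXCL2 higher, CXCL16 lower), 2 h and 6 h (CXCL2 and CCL2 higher), and with GS-5759 1 at 1 h (CXCL2), 2 at 2 h (CXCL2 and CCL2) and 1 at 6 h (CCL2), while it called 19%, 9% and 14.6% and 1.14%, 8.22% and 9.11% of all probe sets.

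The median difference of the 7 tested probe sets from vehicle was 0.25, 0.05, -0.02 and 0.23 for Ind/GSK at 1, 2, 6 and 18 h and 0.45, 0.29, 0.05 and 0.12 for GS-5759. Over all tested probe sets the medians were -0.108, -0.043, -0.039 and -0.031 for Ind/GSK and -0.016, -0.001, 0.003 and 0.005 for GS-5759. Centring on the 75th percentile moved the median of all probe sets for Ind/GSK at 1 h to 0.013 and quantile normalization moved it to -0.018. In that comparison 150 probe sets were called higher and 509 lower as deposited, 435 and 48 after centring, and 159 and 55 after quantile normalization. All measurements are of RNA from whole cultures, in which fewer cells that make a transcript and less RNA per cell cannot be told apart.

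CXCL2, a neutrophil attractant, rose with both treatments at 1 and 2 h on its probe set 209774_x_at and did not pass the test at 6 or 18 h. Signals below are in the order of replicates 1 to 4. At 1 h the CXCL2 signals were 128, 96.9, 246 and 86.3 with vehicle, 608, 425, 1180 and 381 with Ind/GSK and 827, 590, 1210 and 381 with GS-5759. At 2 h they were 78.6, 65.9, 120 and 64.5 with vehicle, 470, 188, 566 and 138 with Ind/GSK and 520, 252, 582 and 160 with GS-5759. Every treated array lay above every vehicle array at both times, and replicate 3 was the brightest of its group in all 6 of these groups. Of all tested probe sets, 1.35% lay so with Ind/GSK at 1 h and 2.11% at 2 h, and 1.35% and 3.39% with GS-5759. At 6 h the CXCL2 signals had come down to 210, 105, 220 and 83.6 with Ind/GSK and 198, 118, 174 and 87.4 with GS-5759, beside 106, 106, 101 and 60.3 with vehicle. At 18 h they were 102, 67.2, 122 and 44.4 with vehicle, 108, 102, 118 and 70.5 with Ind/GSK and 121, 99.4, 129 and 80.4 with GS-5759. Treated and vehicle arrays overlapped at both of the later times.

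**Figure D1:**
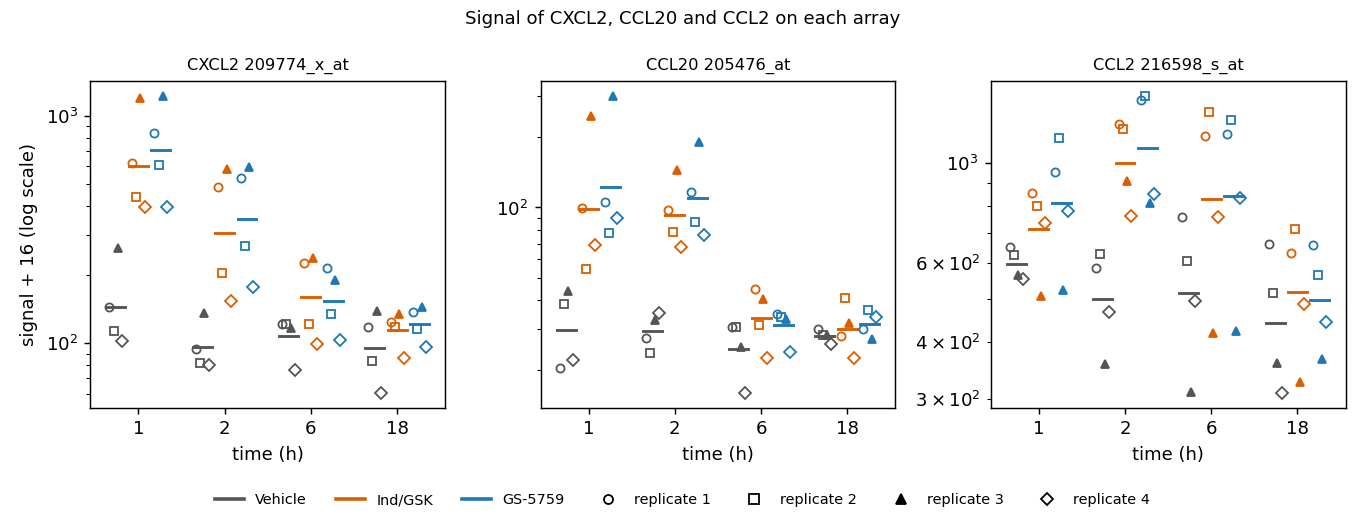
Signal plus 16 (log scale) of the CXCL2 probe set 209774_x_at, the CCL20 probe set 205476_at and the CCL2 probe set 216598_s_at on all 48 arrays, by time in h and treatment, with marker shapes for replicates 1 to 4 and bars at the group mean of the log2 values. CXCL2 and CCL20 arrays of both treatments lie above all vehicle arrays at 1 and 2 h and overlap them at 6 and 18 h, while CCL2 arrays are apart from vehicle at 2 h.

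The CXCL2 difference from vehicle with Ind/GSK was 2.06 ± 0.41 at 1 h (4.17-fold, limma adjusted p = 0.00477) and 1.68 ± 0.41 at 2 h (3.20-fold, limma adjusted p = 0.0139). With GS-5759 it was 2.29 ± 0.41 at 1 h (4.89-fold, limma adjusted p = 0.00144) and 1.87 ± 0.41 at 2 h (3.66-fold, limma adjusted p = 0.00473). Between arrays of the same number the rise was seen in 4 of 4 pairs in each of these comparisons, by 1.96 to 2.19 and 0.93 to 2.36 with Ind/GSK and by 1.96 to 2.55 and 1.13 to 2.50 with GS-5759. For no comparison with vehicle was the share of all probe sets higher or lower in 4 of 4 pairs computed. Such counts, here and for the other members, are therefore a description. At 6 h the differences were 0.57 ± 0.41 and 0.52 ± 0.41 (limma adjusted p = 0.628 and 0.686) and at 18 h 0.26 and 0.36 (0.999 and 1). With the replicate block the SE was 0.19 and the Ind/GSK difference at 6 h passed (adjusted p = 0.0428), but with the block and without replicate 3 it was 0.42 ± 0.20 (adjusted p = 0.207). The mean of both responses changed by -1.23 ± 0.50 from 2 h to 6 h, which limma did not call (adjusted p = 0.45, 0.433% of all probe sets called) and called with the block (± 0.24, adjusted p = 0.00118, 3.92% called). The 4 rises stayed called without replicate 3, at 2.01, 1.54, 2.31 and 1.78. Fitted on the compared groups alone, which leaves fewer arrays to estimate the spread, they were not called (adjusted p = 0.272, 0.198, 0.155 and 0.0887). They were not called when all arrays of replicate 1 or of replicate 2 were left out (adjusted p 0.0777 to 0.24 for differences of 1.45 to 2.25). The Ind/GSK call at 2 h was also lost without single arrays: vehicle replicate 2 or 4 (adjusted p = 0.0509 and 0.0508) and Ind/GSK replicate 1 or 3 (0.0811 and 0.111).

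The other probe sets of CXCL2 did not show that rise. On 230101_at all 48 signals lay between 81.1 and 153, and differences from vehicle ran from -0.09 to 0.15 (SE 0.15), with intervals that stayed within -0.40 to 0.46. On 1569203_at, below the filter, signals lay between 36.8 and 59.4 and differences between -0.08 and 0.19 (SE 0.09). Measured within each array, the log2 difference of 209774_x_at minus 230101_at was 0.36 with vehicle at 1 h, 2.31 with Ind/GSK and 2.51 with GS-5759. Treated minus vehicle, the gap between these probe sets grew by 1.95 and 2.14 at 1 h and by 1.74 and 1.92 at 2 h. At 6 h it differed by 0.55 and 0.62 and at 18 h by 0.26 and 0.44. The probe sets were kept apart because this disagreement was known, so it is given as a description, with no test. The probe set that rose has a name of the _x_at kind and the others do not.

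**Figure D2:**
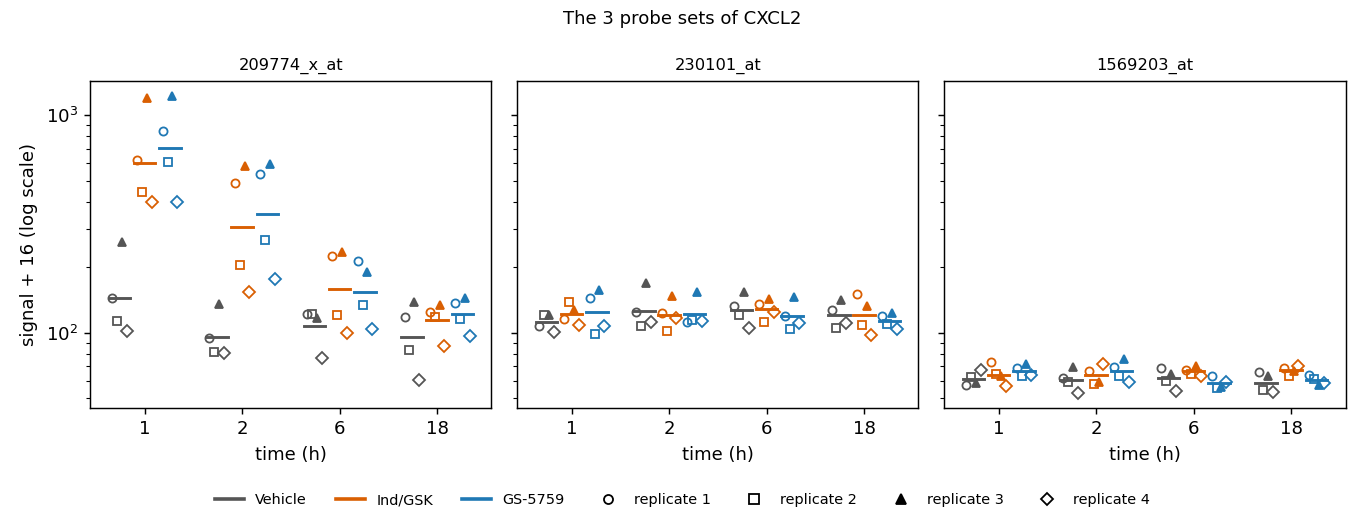
The 3 probe sets of CXCL2 on all 48 arrays, as signal plus 16 (log scale) against time in h for vehicle, Ind/GSK and GS-5759, with marker shapes for the replicates and bars at the group mean of the log2 values. Signals of 209774_x_at reach 1210 at 1 h with GS-5759, whereas those of 230101_at stay between 81.1 and 153 and those of 1569203_at between 36.8 and 59.4 in every group.

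CXCL1, an ELR ligand whose promoter is close in sequence to that of CXCL2, was measured by 1 probe set, 204470_at, and was not called in any comparison. Its signals at 1 h were 119, 125, 293 and 122 with vehicle, 125, 188, 503 and 190 with Ind/GSK and 150, 262, 527 and 170 with GS-5759. CXCL1 at 2 h read 91.1, 123, 168 and 90.2 with vehicle, 98.6, 93.2, 215 and 73.3 with Ind/GSK and 129, 148, 248 and 85.9 with GS-5759. The groups overlapped at both times, since vehicle replicate 3 lay above several treated arrays, although each treated array at 1 h was above the vehicle array of its number. CXCL1 at 6 h read 142, 130, 177 and 116 with vehicle, 107, 122, 183 and 105 with Ind/GSK and 137, 133, 159 and 98.8 with GS-5759. CXCL1 at 18 h read 123, 112, 158 and 117 with vehicle, 124, 152, 114 and 163 with Ind/GSK and 135, 150, 121 and 149 with GS-5759. The differences at 1 h were 0.48 ± 0.33 (95% interval -0.18 to 1.14) with Ind/GSK and 0.63 ± 0.33 (-0.03 to 1.29) with GS-5759, and limma gave adjusted p of 0.403 and 1. From 2 h on they lay between -0.13 and 0.29.

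CXCL3, the chemokine gene next to CXCL2 on the chromosome and also a CXCR2 ligand, had 1 probe set, 207850_at, with a mean signal of 38.5. CXCL3 signals at 1 h were 25.3, 23.8, 40.3 and 25.7 with vehicle, 50.8, 35.6, 84.7 and 44.2 with Ind/GSK and 48.9, 47.1, 101 and 33.6 with GS-5759. CXCL3 at 2 h read 30.4, 24.3, 41.7 and 20.2 with vehicle, 42.9, 35.8, 48.8 and 30.6 with Ind/GSK and 46.9, 34.9, 58.6 and 26.3 with GS-5759. Each treated array was above the vehicle array of its number at both times, but the groups overlapped. CXCL3 at 6 h read 25.9, 39.7, 47 and 30.7 with vehicle, 32.5, 28.9, 51.1 and 25.7 with Ind/GSK and 35.7, 32.4, 45.6 and 17.8 with GS-5759, and at 18 h all signals lay between 30.1 and 44.5. Without the filter the differences at 1 h were 0.61 ± 0.21 with Ind/GSK and 0.66 ± 0.21 with GS-5759, not called by limma (adjusted p = 0.143 and 0.407). With the replicate block they were called (± 0.12, adjusted p = 0.00169 and 0.000879), where 8.06% and 0.709% of all probe sets were. With the block and without replicate 3 they were 0.53 (adjusted p = 0.0208, 4.71% of all probe sets called) and 0.52 (adjusted p = 0.0662). At 2 h CXCL3 differed by 0.31 and 0.34 and later by -0.10 to 0.00.

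CXCL8, the ligand known as interleukin-8, was measured by 202859_x_at and by the dimmer 211506_s_at. On 202859_x_at the CXCL8 signals at 1 h were 79.4, 81.1, 134 and 73.1 with vehicle, 122, 86.6, 314 and 97.8 with Ind/GSK and 135, 151, 318 and 91.4 with GS-5759. CXCL8 at 2 h read 84, 76.9, 71.5 and 70.5 with vehicle, 127, 79.9, 128 and 58.6 with Ind/GSK and 134, 104, 117 and 66.1 with GS-5759. The highest CXCL8 signals, 314 and 318, were those of replicate 3 at 1 h with each treatment, and the groups overlapped. Each treated array at 1 h was above the vehicle array of its number, by 0.08 to 1.13 with Ind/GSK and 0.27 to 1.15 with GS-5759. CXCL8 at 6 h read 81, 74.6, 70.4 and 59 with vehicle, 85.2, 59.6, 87 and 52.3 with Ind/GSK and 107, 68.5, 95.8 and 51 with GS-5759. CXCL8 at 18 h read 99.1, 94.2, 77.2 and 64.2 with vehicle, 94, 144, 68.7 and 118 with Ind/GSK and 120, 142, 64.4 and 119 with GS-5759. At 1 h this probe set differed by 0.53 ± 0.29 with Ind/GSK and 0.72 ± 0.29 with GS-5759, and limma called neither (adjusted p = 0.304 and 0.872). On 211506_s_at, with signals of 13.6 to 95.5, the differences at 1 h were 0.49 ± 0.19 and 0.74 ± 0.19 in the fit without the filter (adjusted p = 0.198 and 0.162). Its same-number pairs at 1 h were also all higher, by 0.36 to 0.75 with Ind/GSK and 0.3 to 1.03 with GS-5759. The replicate block brought the GS-5759 value of 211506_s_at under the threshold (adjusted p = 0.0473), and leaving out replicate 3 as well took it back to 0.185. At later times 202859_x_at differed by -0.02 to 0.37 and 211506_s_at by 0.12 to 0.42.

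CXCL5 on its brightest probe set and CXCL6, a pair of ELR ligands with alike promoters, varied more with the replicate number (65.1% and 68.8% of the variance) than with the group (8.35% and 5.88%). On the CXCL5 probe set 214974_x_at the signals at 1 h were 159, 173, 767 and 162 with vehicle, 155, 174, 203 and 176 with Ind/GSK and 161, 207, 799 and 183 with GS-5759. CXCL5 at 2 h read 163, 195, 708 and 144 with vehicle, 209, 159, 529 and 184 with Ind/GSK and 198, 199, 658 and 190 with GS-5759. In these groups replicate 3 stood far above the other arrays except with Ind/GSK at 1 h. CXCL5 at 6 h read 195, 187, 685 and 206 with vehicle, 177, 191, 769 and 187 with Ind/GSK and 203, 198, 203 and 182 with GS-5759. CXCL5 at 18 h read 159, 163, 212 and 210 with vehicle, 129, 186, 587 and 172 with Ind/GSK and 189, 194, 221 and 186 with GS-5759. Thus 8 of the replicate 3 arrays read 529 to 799 and 4 read 203 to 221 (vehicle at 18 h, Ind/GSK at 1 h and GS-5759 at 6 and 18 h), beside 129 to 210 on the other 36 arrays. The difference with Ind/GSK at 1 h, -0.44 ± 0.52, was -1.84 in replicate 3 and -0.03 to 0.11 in the others, and that with GS-5759 at 6 h, -0.43, was -1.68 in replicate 3. The other CXCL5 probe sets, 215101_s_at and 207852_at, had signals of 8.98 to 25.0 and 5.94 to 23.7 with differences of -0.19 to 0.09 and -0.18 to 0.11. On 207852_at 36.2% of the variance lay between replicate numbers and 12.7% between groups, and on 215101_s_at it was the other way round, 16.9% and 28.2%. No probe set of CXCL5 was called.

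CXCL6, on 206336_at, was below the filter. CXCL6 signals at 1 h were 27.3, 21.8, 60.8 and 19.6 with vehicle, 31.5, 24.9, 53.4 and 27.1 with Ind/GSK and 16.5, 18.4, 62.8 and 23.7 with GS-5759. CXCL6 at 2 h read 24.4, 18, 41.1 and 14.9 with vehicle, 36.3, 29.6, 39.3 and 13.8 with Ind/GSK and 27.3, 23.1, 46 and 23.2 with GS-5759. Replicate 3 was the highest of its group in 12 of 12 groups for CXCL6, as it was for CXCL3 and for CXCL5 on 214974_x_at. CXCL6 at 6 h read 30.4, 31.4, 45.6 and 25.7 with vehicle, 25.1, 29.7, 44.2 and 15.7 with Ind/GSK and 31, 25.7, 33.9 and 20.9 with GS-5759. CXCL6 at 18 h read 35.3, 20.8, 51.6 and 15.3 with vehicle, 27.1, 23.1, 32.4 and 28 with Ind/GSK and 32.6, 29.5, 37.8 and 23.2 with GS-5759. Groups overlapped at every time, and differences from vehicle ran from -0.16 to 0.19 (SE 0.26) with no call.

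CXCL16, the chemokine with a membrane anchor, followed the replicate number in most of its variation. CXCL16 signals at 1 h on 223454_at were 386, 518, 280 and 474 with vehicle, 325, 401, 249 and 443 with Ind/GSK and 374, 493, 309 and 477 with GS-5759. CXCL16 at 2 h read 304, 450, 272 and 445 with vehicle, 362, 474, 256 and 432 with Ind/GSK and 369, 471, 293 and 482 with GS-5759. Replicate 3 was the lowest array in all 12 groups, at 249 to 309 against 304 to 537 on the others. CXCL16 at 6 h read 364, 471, 271 and 478 with vehicle, 331, 470, 297 and 447 with Ind/GSK and 373, 488, 294 and 480 with GS-5759. CXCL16 at 18 h read 361, 514, 303 and 537 with vehicle, 354, 452, 291 and 524 with Ind/GSK and 377, 475, 306 and 512 with GS-5759. Of the variance over the 48 log2 values, 91.3% lay between replicate numbers and 5.73% between groups. The difference with Ind/GSK at 1 h was -0.21 ± 0.24 (limma adjusted p = 0.622). It was lower in 4 of 4 same-number pairs (-0.36 to -0.09) and was called with the replicate block (± 0.05, adjusted p = 0.0053). The same blocked fit gave -0.09 (adjusted p = 0.318) after centring arrays on the 75th percentile and -0.10 (adjusted p = 0.258) after quantile normalization. In the other comparisons with vehicle CXCL16 differed by -0.07 to 0.14.

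CCL20, the CCR6 ligand, rose at 1 and 2 h with both treatments from signals near the bottom of the scale. CCL20 signals at 1 h on 205476_at were 4.56, 22.7, 28 and 6.27 with vehicle, 83.9, 38.7, 230 and 53.2 with Ind/GSK and 89.5, 62.1, 285 and 73.7 with GS-5759. CCL20 at 2 h read 11.6, 7.74, 17 and 19.2 with vehicle, 81.4, 62.4, 129 and 51.6 with Ind/GSK and 101, 70.6, 175 and 59.9 with GS-5759. All treated arrays lay above all vehicle arrays at both times. The share of all 54613 probe sets that lay so was not computed. CCL20 at 6 h read 14.6, 14.6, 9.14 and 0.00912 with vehicle, 28.5, 15.4, 24.4 and 6.6 with Ind/GSK and 18.9, 17.9, 17.3 and 8.05 with GS-5759. CCL20 at 18 h read 14, 12.3, 12.3 and 9.92 with vehicle, 12, 25, 15.8 and 6.65 with Ind/GSK and 14, 20.3, 11.2 and 18 with GS-5759. By 6 h no array was above 28.5 and the groups overlapped. In the limma fit without the filter the rises were 1.73 ± 0.35 (adjusted p = 0.0113) and 1.66 ± 0.35 (adjusted p = 0.00693) with Ind/GSK at 1 and 2 h. With GS-5759 they were 2.04 ± 0.35 (adjusted p = 0.00157) and 1.90 ± 0.35 (adjusted p = 0.00114). CCL20 was higher in 4 of 4 same-number pairs in each, by 0.50 to 2.48 and 0.94 to 2.14 with Ind/GSK and by 1.01 to 2.77 and 1.11 to 2.53 with GS-5759. At 6 h the differences were 0.44 and 0.33, and at 18 h 0.10 and 0.17. The mean response fell by 1.39 from 2 h to 6 h with the replicate block (adjusted p = 0.0307, 1.72% of all probe sets called), a change not called without it (adjusted p = 0.308). Without replicate 3 the 4 rises were 1.47, 1.50, 1.79 and 1.69 and stayed called. Leaving out all arrays of replicate 1 ended the 4 calls (adjusted p = 0.29, 0.177, 0.233 and 0.0991). Leaving out replicate 2 ended both Ind/GSK calls (0.0503 and 0.0978), as did single arrays: vehicle replicate 1 (0.0763) or Ind/GSK replicate 3 (0.0575) at 1 h, and Ind/GSK replicate 3 (0.062) at 2 h.

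CCL2, the monocyte attractant, was on all treated arrays above all vehicle arrays at 2 h, by about 2-fold, without a call in the fit of group means alone. Of all tested probe sets 2.11% lay so at 2 h with Ind/GSK and 3.39% with GS-5759. CCL2 signals at 1 h on 216598_s_at were 636, 609, 547 and 537 with vehicle, 842, 784, 490 and 721 with Ind/GSK and 940, 1120, 507 and 767 with GS-5759. CCL2 at 2 h read 569, 612, 343 and 452 with vehicle, 1200, 1170, 895 and 747 with Ind/GSK and 1360, 1390, 797 and 838 with GS-5759. The groups overlapped at 1 h and were apart at 2 h, and replicate 3 was the lowest of its group in 9 of 12 groups. CCL2 at 6 h read 743, 589, 295 and 477 with vehicle, 1130, 1280, 404 and 742 with Ind/GSK and 1140, 1230, 408 and 821 with GS-5759. CCL2 at 18 h read 646, 499, 344 and 293 with vehicle, 616, 696, 311 and 471 with Ind/GSK and 641, 549, 351 and 428 with GS-5759. At 6 h replicate 3 with either drug was below 3 of the vehicle arrays, and at 18 h the groups lay over each other. The differences at 2 h were 1.00 ± 0.33 with Ind/GSK (95% interval 0.34 to 1.66, limma adjusted p = 0.105) and 1.11 ± 0.33 with GS-5759 (0.45 to 1.77, limma adjusted p = 0.0634). With the replicate block CCL2 was called at 2 h (± 0.16, adjusted p = 1.93e-05 and 2.57e-06) and at 6 h, where it differed by 0.69 and 0.71 (adjusted p = 0.00233 and 0.00245, against 0.331 and 0.365 without the block). CCL2 was higher in 4 of 4 same-number pairs in each of these, by 0.70 to 1.34 and 0.43 to 1.10 with Ind/GSK and by 0.87 to 1.23 and 0.45 to 1.04 with GS-5759. Without replicate 3 the 2 h differences were 0.89 (adjusted p = 0.0638) and 1.09 ± 0.25 (adjusted p = 0.0123, 2.58% of all probe sets called). With all arrays the differences at 1 h were 0.25 and 0.45 and at 18 h 0.23 and 0.17. The same-number pairs at 1 h differed by -0.15 and -0.11 in replicate 3, and by 0.36 to 0.41 and 0.50 to 0.86 in the others. Over all 39 settings run, limma called CCL2 at 1 h in 1 with Ind/GSK (adjusted p = 0.0361) and in 2 with GS-5759 (lowest adjusted p = 0.00497). The block alone called it in neither comparison. The mean response grew by 0.70 from 1 h to 2 h, called with the block (adjusted p = 0.0361, 2.98% of all probe sets called) and not without it (adjusted p = 0.639). That call was lost when the blocked arrays were centred on the 75th percentile (0.62, adjusted p = 0.0715), quantile normalized (0.61, adjusted p = 0.0756) or taken without replicate 3 (0.48, adjusted p = 0.0834).

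**Figure D3:**
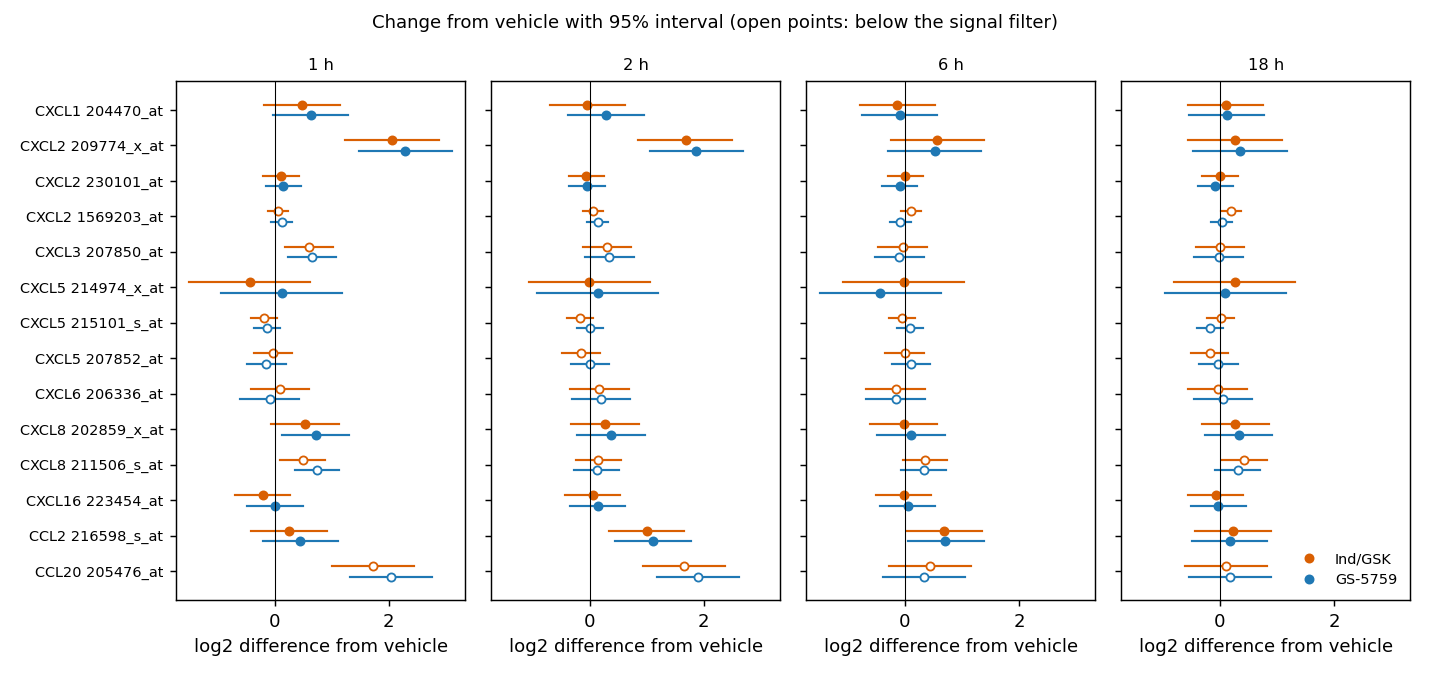
Log2 difference from vehicle of each of the 14 probe sets at 1, 2, 6 and 18 h for Ind/GSK and GS-5759, with 95% intervals and open points for probe sets below the low-signal filter. The 209774_x_at probe set of CXCL2 and the CCL20 probe set reach 2.29 and 2.04 at 1 h with GS-5759, CCL2 reaches 1.11 at 2 h, and the other probe sets lie between -0.44 and 0.74.

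GS-5759 and Ind/GSK were compared directly to ask whether 1 molecule with both activities and the pair of drugs gave different chemokine levels. None of the 7 tested probe sets was called at any time or for the mean of the 4 times, and 0 of 7 passed at unadjusted p under 0.05. Over all probe sets limma called 0%, 0%, 0.00305% and 0% at 1, 2, 6 and 18 h and 0.488% for the mean of the times, and 7.59%, 2.15%, 3.59%, 0.76% and 19% passed at unadjusted p under 0.05. At 1 h CXCL2 on 209774_x_at was higher with GS-5759 by 0.23 (95% interval -0.59 to 1.05), and at 2 h by 0.19 (-0.63 to 1.02). CCL20 differed by 0.31 (-0.40 to 1.03) at 1 h and 0.24 (-0.48 to 0.96) at 2 h, and CCL2 by 0.20 (-0.46 to 0.86) and 0.11 (-0.55 to 0.77). Over the 7 tested probe sets and 4 times the differences ran from -0.41 to 0.55 and the bounds of their intervals from -1.47 to 1.61, so the fit of group means alone leaves differences of up to that size possible. With the replicate block the bounds for those 28 comparisons ran from -1 to 1.14, and from -0.47 to 0.79 without CXCL5. In that fit CXCL2 differed by 0.23 (-0.16 to 0.63) at 1 h and 0.19 (-0.20 to 0.59) at 2 h, CCL2 by 0.20 (-0.12 to 0.52) and 0.11 (-0.21 to 0.43), and CCL20 by 0.31 (-0.28 to 0.91) and 0.24 (-0.35 to 0.83). Of the members at these single times limma called none with the block, the lowest adjusted p being 0.0992 for CXCL16 at 1 h (0.22, interval 0.12 to 0.32). GS-5759 was above Ind/GSK in 4 of 4 same-number pairs in 5 of the 28 comparisons and below it in 4 of 4 in none. These 5 were CXCL2 (0.04 to 0.40) and CXCL1 (0.19 to 0.59) at 2 h and CXCL5 (0.05 to 1.89), CXCL16 (0.10 to 0.29) and CCL2 (0.05 to 0.51) at 1 h. CCL20 was also higher in 4 of 4 pairs at 1 h (0.08 to 0.51) and at 2 h (0.14 to 0.39). The median of all tested probe sets was likewise higher with GS-5759, by 0.094, 0.047, 0.055 and 0.036 at 1, 2, 6 and 18 h. What share of all probe sets was higher in 4 of 4 pairs was not computed, so these pairs are a description. Averaged over the times, CXCL2 differed by 0.12 (-0.29 to 0.53). CXCL16 differed by 0.11 ± 0.12 (adjusted p = 0.6), which the replicate block called (± 0.02, adjusted p = 0.00886, 17.5% of all probe sets called). In that blocked fit the CXCL16 value was 0.04 after 75th percentile centring (adjusted p = 0.457) and 0.04 after quantile normalization (adjusted p = 0.365), and without replicate 3 it was 0.10 (adjusted p = 0.0609). Both drug groups share their vehicle arrays, so their differences from vehicle are not independent of each other.

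With vehicle alone, 0 of the 7 tested probe sets were called between 1 and 2 h, 2 and 6 h, 6 and 18 h or 1 and 18 h, and 0 at unadjusted p under 0.05, while limma called 2.86%, 0.247%, 11.6% and 4.53% of all probe sets and 18.6%, 8.97%, 23.7% and 15.8% passed at unadjusted p under 0.05. For the change of the mean drug response from 1 to 2 h, 2 to 6 h and 6 to 18 h, limma also called 0 of 7, with 0, 1 and 0 of 7 at unadjusted p under 0.05. Of all probe sets 0.211%, 0.433% and 0.29% were called for these changes, and 9.01%, 8.12% and 7.34% passed unadjusted. CXCL2 on 209774_x_at stood at a mean signal of 139 ± 73.5 (SD, n = 4) at 1 h, 82.3 ± 26.0 at 2 h, 93.3 ± 22.1 at 6 h and 84.0 ± 34.9 at 18 h. Its differences from 1 h, -0.59 at 2 h and -0.60 at 18 h, were called with the replicate block (adjusted p = 0.0343 and 0.0271, where 16.6% and 17.2% of all probe sets were) but not with the block and without replicate 3 (-0.47 and -0.49, adjusted p = 0.0942 and 0.0992). CXCL16 differed by -0.16 between 1 and 2 h, called with the block (adjusted p = 0.023) and not after 75th percentile centring of the blocked arrays (-0.07, adjusted p = 0.362).

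In the order of the 12 group means, CXCL2 on 209774_x_at stood highest with GS-5759 at 1 h, then Ind/GSK at 1 h, GS-5759 at 2 h and Ind/GSK at 2 h. The gap from there to Ind/GSK at 6 h, 0.95, was the 1 of 11 between neighbours that exceeded the larger SD of the 2 groups. CCL20 also had 1 such gap of 11, and its means spanned 2.30 against 2.89 for CXCL2. For the other 12 probe sets no neighbouring means differed by more than the larger SD, and their means spanned 0.19 (CXCL2 on 230101_at) to 1.28 (CCL2, highest with GS-5759 at 2 h and lowest with vehicle at 18 h). Groups accounted for 78.8% of the variance of CCL20, 78.4% of CXCL2 on 209774_x_at and 50.9% of CCL2, and replicate numbers for 68.8% of CXCL6 and 65.1% of CXCL5 on 214974_x_at. Replicate 3 deviated from its group mean on average by 0.97 for CXCL5 on 214974_x_at, 0.57 for CXCL2 on 209774_x_at, 0.51 for CXCL1 and 0.42 for CCL20, and by -0.53 for CCL2 and -0.43 for CXCL16. Whether the KRT5 and KRT19 levels of those arrays bear on these deviations was not tested.

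**Figure D4:**
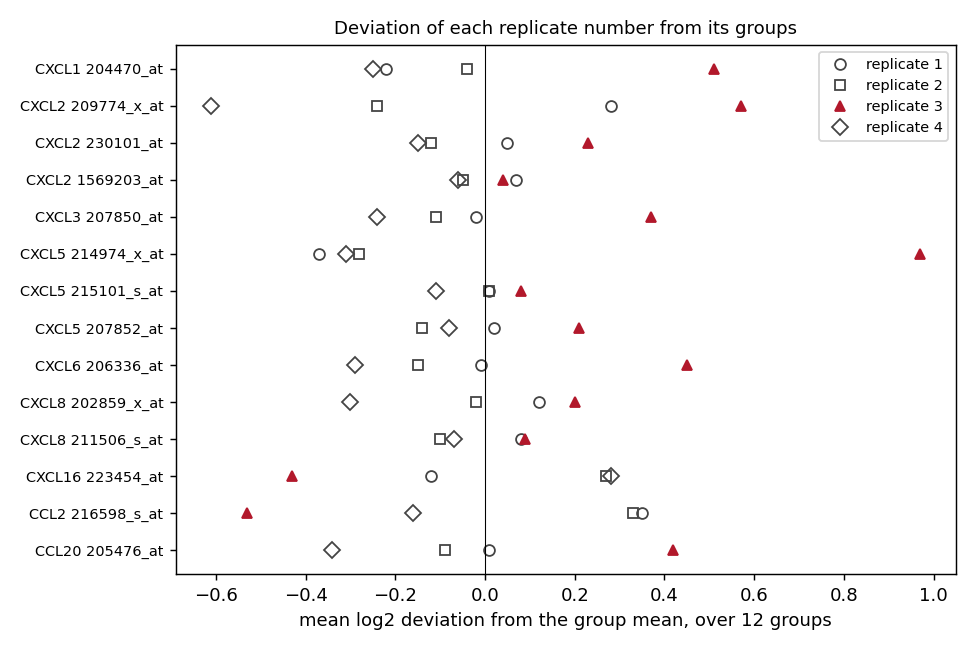
Mean log2 deviation of each replicate number from the mean of its group, over the 12 groups (horizontal axis), for each of the 14 chemokine probe sets (vertical axis), with marker shapes for replicates 1 to 4. Replicate 3 lies at 0.97 for CXCL5 on 214974_x_at and at -0.53 and -0.43 for CCL2 and CXCL16.

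The pathway around the members was read from lists with the brightest probe set of each gene. Of 28 other chemokine ligands 6 were tested (CXCL12, CCL5, CCL11, CCL19, CCL22 and CCL28), of 22 chemokine receptors 9, and of 10 proteases that shed or trim chemokines 6. None of these was called against vehicle at any time with either treatment, where 0% to 2.87% of all tested probe sets were called. With shares that small, a lack of calls in lists of this size says little. The lists were not read from the fit with the replicate block. The receptors of CXCL2 and CCL20, CXCR2 (11.4 to 44.6) and CCR6 (2.33 to 19.5), had signals under the filter level on all arrays.

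Of 14 tested genes of NF-kB subunits and feedback inhibitors, 1 rose with each treatment at 1 h, 2 with Ind/GSK and 3 with GS-5759 at 2 h, and none was called later or in the other direction. Over all tested probe sets 2.01% and 0.259% were called at 1 h, and 2.43% and 2.24% at 2 h, with Ind/GSK and GS-5759. NFKBIZ, an inducible nuclear IkB protein, rose by 0.60 and 0.79 at 1 h (adjusted p = 0.00538 and 0.000112) and by 0.55 and 0.73 at 2 h. REL, an NF-kB subunit, rose by 0.84 and 0.91 at 2 h, and NFKB2, another subunit, by 0.42 with GS-5759 (adjusted p = 0.00234). The median of the 14 genes lay between -0.13 and 0.11 in all 8 comparisons with vehicle.

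Of 10 tested regulators of AU-rich mRNA decay, 2 rose at 1 h and 3 at 2 h with each treatment, beside the same 2.01% and 0.259% of all tested probe sets called at 1 h and 2.43% and 2.24% at 2 h. ZFP36L1, which promotes decay, rose by 0.72 and 0.81 at 1 h and DUSP1, a phosphatase that limits p38 signalling, by 0.70 with each. RC3H1, a decay factor, rose by 0.40 and 0.36 at 2 h. ZFP36L1 and DUSP1 were also called higher at 6 h with Ind/GSK, and DUSP1 with GS-5759. ELAVL1, which codes for an mRNA-stabilising protein, was the 1 gene of the list called lower at that time, at -0.25 with Ind/GSK and -0.16 with GS-5759.

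Of 12 tested cyclic AMP and CREB target genes, 7 rose with each treatment at 1 h, 10 with each at 2 h, and 5 with Ind/GSK and 3 with GS-5759 at 6 h, with medians of 1.34, 2.01 and 0.90 for Ind/GSK and 1.61, 2.11 and 0.64 for GS-5759. At 6 h 2.87% and 1.28% of all tested probe sets were called, and the shares at 1 and 2 h are those just given. At 18 h limma called none, with medians of 0.35 and 0.25. DUSP1 is in this list and in that of the mRNA decay regulators, so the counts of these lists share a gene. NR4A3, a nuclear receptor, rose by 3.60 and 3.87 at 1 h and by 5.46 and 5.53 at 2 h, NR4A2, another of that family, by 4.08 and 4.15 at 1 h, IL6, a cytokine, by 3.25 and 3.35 at 1 h, and SIK1, a kinase that restrains CREB coactivators, by 2.23 and 2.36 at 1 h. Over the 12 group means, the genes whose pattern was most like that of CXCL2 on 209774_x_at among 14408 were SNAI2, a transcriptional repressor (Pearson r = 0.994), SGK1, a kinase (0.985), and IL6 (0.983). These are correlations of group means from the same arrays, given as a description.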

How the data were processed

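Expression was measured on 48 Affymetrix U133 Plus arrays of biotinylated cRNA, 4 in each of 12 groups taken from the sample titles. The authors deposited 1 linear intensity for each probe set. The submitters' processing notes name PLIER and Affymetrix Expression Console; their versions and any normalization between arrays are not given in the sources used here. Array medians of log2(value + 16) lay between 6.998 and 7.172, and the number of arrays limits the precision. Nothing in the labels says that replicates were separate cultures, so each p-value reflects only how far these samples spread, which may be technical.

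Probe sets were named from GEO's platform annotation (41091 with 1 symbol, 1801 with several, 11721 with none), and 41037 of those with 1 symbol matched RefSeq by gene ID. Log2(value + 16) was fitted by limma (version 3.58.1, R 4.3.3) to 12 group means with eBayes moderation on 36 residual degrees of freedom, over the 32768 non-control probe sets whose mean was above the 40th percentile. Benjamini-Hochberg adjustment ran over all tested probe sets, separately for each comparison. The gap between CXCL2 probe sets was known beforehand and is given without a test. Pathway lists were read from this fit alone.

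Same-numbered arrays deviated together: over the 12 comparisons of treatments at one time, the residuals of all 48 same-number pairs correlated at 0.17 to 0.91. The numbers were therefore taken as pairing the arrays, a pairing that comes from the titles and the data, and fits with the number as a block are given where they change a call. Alternatives were another constant (1 or 64), no filter, 75th percentile centring, quantile normalization, 1 brightest probe set per gene, a trended robust fit, the compared groups alone, the block, and each array or number left out. Combinations of the block with no filter, with a scaling or without replicate 3, and of no filter with left-out arrays, were chosen after seeing the data.

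Per-array values are given for the brightest probe set of each gene, and the other probe sets by their ranges. The members and lists were chosen with earlier results of these data known. Promoters were searched with Python 3.11.15. The fits were tested on simulated data.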

Additional observations from a re-analysis of the deposited data

Results flagged for a closer look

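Of the 168 combinations of a probe set and a group of 4 arrays, 11 held an array whose gap to its nearest neighbour, as a share of the group's whole range of log2 values, passed Dixon's 95% critical value, where chance gives about 1 in 20. In 9 of the 11 the array was the highest of its group and belonged to replicate 3. For CXCL5 on 214974_x_at these were vehicle at 1 h (share 0.946, signal 767), vehicle at 6 h (0.93, signal 685), Ind/GSK at 6 h (0.951, signal 769), GS-5759 at 1 h (0.848, signal 799) and GS-5759 at 2 h (0.965, signal 658).

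With vehicle at 1 h replicate 3 was also far from the others for CXCL1 (share 0.952, signal 293), CXCL3 (0.87, signal 40.3) and CXCL8 on 202859_x_at (0.836, signal 134). For CXCL2 on 230101_at it was GS-5759 replicate 3 at 2 h (share 0.923, signal 137).

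The lowest array of its group was far from the others in 2 cases, both replicate 4. These were CXCL2 on 209774_x_at with vehicle at 6 h (share 0.899, signal 60.3) and CCL20 with GS-5759 at 6 h (share 0.872, signal 8.05).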

How the results depend on the processing

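No difference named here changed direction while called under any alternative run. The number of tested members called was 1 with each treatment at 1 and 2 h and 0 in the other comparisons, and it moved as follows. Without the low-signal filter 2 were called with Ind/GSK and with GS-5759 at 1 and 2 h, CCL20 being added. With the replicate block 2 were called with Ind/GSK at 1, 2 and 6 h, 2 and 1 with GS-5759 at 2 and 6 h, 1 for GS-5759 against Ind/GSK over the mean of the times, 1 for each change of response (1 to 2 h and 2 to 6 h), and 2 and 1 for vehicle at 2 and 18 h against 1 h. The block changed no other call of a tested member. With only the groups compared 0 were called with Ind/GSK or GS-5759 at 1 and 2 h, where CXCL2 had limma adjusted p of 0.272, 0.198, 0.155 and 0.0887, beside 1, 2, 2 and 2 of 7 at unadjusted p under 0.05 in the fit of all groups.

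Leaving out 1 array or 1 replicate number gave 0 to 1 with Ind/GSK at 1 h, 0 to 1 at 2 h, 0 to 1 with GS-5759 at 1 h and 0 to 2 at 2 h. Adding 1 or 64, either scaling, 1 probe set per gene and the trended robust fit kept the 4 calls of CXCL2 (1.32 to 2.43). Probe sets below the filter, that of CCL20 among them, were not fitted with another constant, a scaling, the trended robust fit or the compared groups alone. Whether the CCL20 calls depend on these choices was therefore not tested. Near-zero differences of CXCL16 and CXCL8 on 202859_x_at with Ind/GSK at 6 h and of CXCL5 on 214974_x_at with Ind/GSK at 2 and 6 h changed sign under a scaling. Low signal limits CXCL3, CXCL6 and CCL20, whose changes are understated. The cause of these movements was not tested.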
